A study of Mus musculus with 9 samples.

Results

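The genes described here encode the subunits of potassium channels in 3 layers of the newborn mouse bladder. They were taken as every gene whose symbol begins with Kcn in the annotation used here, which gave 84 genes and 167 probe sets of 18193 genes and 34945 probe sets with a single symbol. Grouped by symbol, 22 were voltage-gated pore-forming subunits (Kcna, Kcnc, Kcnd, Kcnh and Kcnq), 9 were voltage-gated modifier subunits (Kcnf, Kcng, Kcns and Kcnv) and 12 were auxiliary subunits of voltage-gated channels (Kcnab, Kcne and Kcnip). Another 11 belonged to the calcium-activated and Slo channels (Kcnma, Kcnmb, Kcnn, Kcnt and Kcnu), 15 to the inward rectifiers (Kcnj) and 12 to the two-pore channels (Kcnk). The other 3 were noncoding transcripts named after channel genes (Kcnmb4os1, Kcnmb4os2 and Kcnq1ot1). The annotation used here lists no Kcnb symbol, so Kcnb genes were not analysed here.

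Detrusor (the smooth muscle coat), stroma and urothelium (the lining epithelium) were captured by laser from frozen bladder sections of FVB/N mice, and each layer was measured on 3 Affymetrix arrays after 2 rounds of RNA amplification. All 9 samples came from animals carrying the SMGA/EGFP transgene, in which the smooth muscle gamma actin gene (Actg2) drives a fluorescent protein, and no group lacked it. Detrusor 1 and 2, stroma 1 and urothelium 2 were from postnatal day 1, and the other 5 samples were from day 2. The labels call the samples unpooled, give the sex as unknown and do not tie captures to animals, so the p-values measure the spread between these captures, which may be technical and too small if captures share an animal.

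Potassium channels let potassium leave a cell, which pulls the membrane potential towards negative values and closes voltage-gated calcium channels. In bladder smooth muscle, the large-conductance calcium-activated channel, the small-conductance channels, the ATP-sensitive channel and several voltage-gated channels are known to hold down spontaneous contraction, whereas epithelia use potassium channels to set the driving force for ion transport. A working channel joins 4 pore-forming subunits, or a pair of two-pore subunits, and modifier and auxiliary subunits change where such a channel goes and when it opens.

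Start-site sequence is shown for 4 genes on which the results turn, the pore and the smooth muscle beta subunit of the large-conductance channel (Kcnma1 and Kcnmb1) and a pair of genes that were higher in urothelium than in detrusor (Kcnk1 and Kcnj15). Each run is 150 bases long, from 250 to 101 bases before the RefSeq transcript start, 5′ to 3′ along the gene, with CG dinucleotides (the same on both strands) in capitals. The positions on GRCm38.p6 are chr14:24004306-24004455 (minus strand), chr11:33962763-33962912 (plus strand), chr8:125994852-125995001 (plus strand) and chr16:95257308-95257457 (plus strand).
Kcnma1: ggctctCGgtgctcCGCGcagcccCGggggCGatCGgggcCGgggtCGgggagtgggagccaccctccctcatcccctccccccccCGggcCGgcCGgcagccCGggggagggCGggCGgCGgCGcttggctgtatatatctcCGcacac
Kcnmb1: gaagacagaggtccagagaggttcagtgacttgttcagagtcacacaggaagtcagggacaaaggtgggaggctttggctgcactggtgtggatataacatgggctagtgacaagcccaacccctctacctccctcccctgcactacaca
Kcnk1: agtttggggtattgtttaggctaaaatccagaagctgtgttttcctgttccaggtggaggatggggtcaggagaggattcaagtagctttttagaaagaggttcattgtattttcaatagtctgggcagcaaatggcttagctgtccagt
Kcnj15: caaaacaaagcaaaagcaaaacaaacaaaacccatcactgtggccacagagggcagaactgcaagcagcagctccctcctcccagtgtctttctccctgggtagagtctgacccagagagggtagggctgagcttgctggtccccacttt
Within 250 bases before the start, Kcnma1 held 31 CG dinucleotides and Kcnmb1 held 1, so the channel's subunits start in windows of unlike base composition (79.2% and 50.8% G or C). Kcnk1 held 0 and Kcnj15 held 1. Over all 32851 start windows in the table the median was 6, 37.8% held 10 or more and 18.8% held 1 or fewer, and among the 89 windows of the 64 potassium channel genes that matched, 40.4% and 10.1% did. The CArG box, the motif bound by serum response factor in smooth muscle genes, was searched on both strands in the same stretch, and 0 of the 89 windows and 1.47% of all windows held a match. These letters are a description, and no binding or methylation was measured.

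Low signals were read against a background yardstick, the 95th percentile on each array of 81 probe sets for 72 olfactory, vomeronasal and trace amine receptor genes, which lay between 123.1 and 529.4 intensity units. A gene counted as above it in a layer when any of its probe sets exceeded it on all 3 arrays of that layer. In detrusor 21 of the 84 potassium channel genes did (25.0%, against 54.87% of all 18193 genes), in stroma 12 (14.29% against 52.31%) and in urothelium 15 (17.86% against 56.81%). In no layer did 57 of them pass (67.86% against 37.4%), which does not show that a transcript is absent. Kcnd3, Kcne4, Kcnma1, Kcnmb4, Kcnj11, Kcnj8, Kcnk2, Kcnk6 and Kcnq1ot1 were above the yardstick in all 3 layers.

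**Figure D1:**
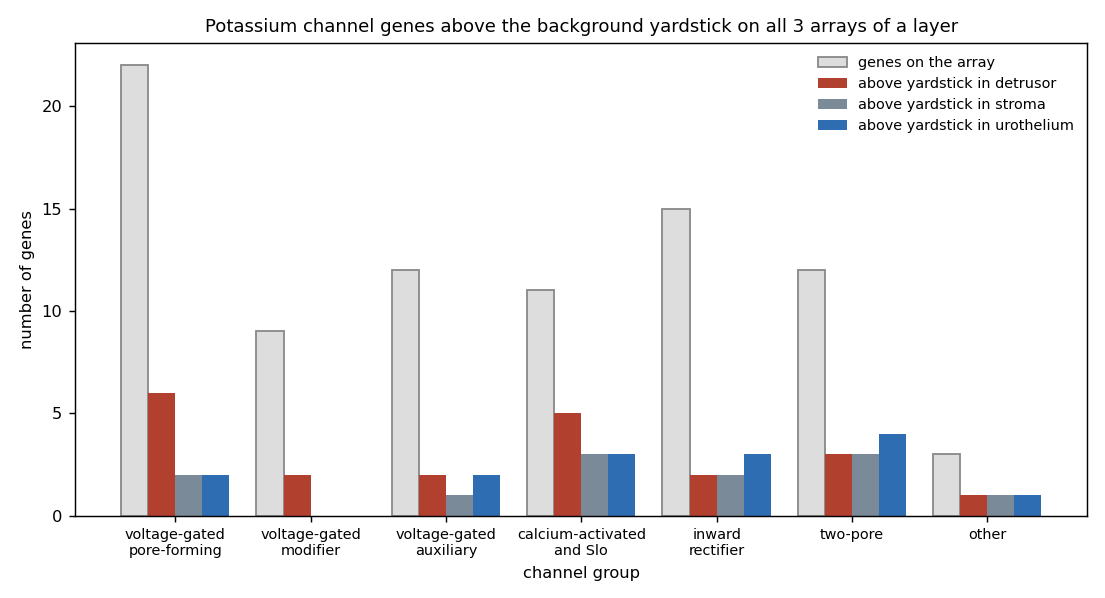
Bars give the number of potassium channel genes on the array (light grey) and the number above the background yardstick on all 3 arrays of detrusor, stroma or urothelium, by channel group. In detrusor the voltage-gated pore-forming group has 6 of 22 and the calcium-activated and Slo group 5 of 11, and no modifier subunit passes in stroma or urothelium.

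The calcium-activated and Slo group had the largest share of members above the yardstick in at least 1 layer, 7 of 11, and the inward rectifiers the smallest, 3 of 15. The two-pore channels had 5 of 12, the voltage-gated pore-forming subunits 6 of 22, the auxiliary subunits 3 of 12 and the modifiers 2 of 9. Of the 57 genes that passed in no layer, 22 exceeded the yardstick on no array with any probe set, among them Kcnn3 (a small-conductance channel), Kcnj2 and Kcnj9 (inward rectifiers), Kcnq1 and Kcnd2. Another 8 exceeded it on 4 or more arrays without filling a layer, namely Kcna7, Kcnc2, Kcnh1, Kcnh3, Kcnj6, Kcnk7, Kcnn1 and Kcnu1.

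Some arrays carried transcripts of another tissue. The 8 smooth muscle markers, including Actg2 and Myh11, summed to between 247000 and 326200 intensity units in detrusor and to between 8741 and 56380 in stroma, and urothelium 3 reached 170000 where urothelium 1 and 2 gave 4735 and 1991. Actg2 alone gave 40808 on stroma 1, 35233 on stroma 3 and 82286 on urothelium 3. The median log2 level of the 8 was 13.98 to 14.98 in detrusor and 8.96 to 11.27 in stroma. On urothelium 1, 2 and 3 it was 8.39, 8.03 and 12.62. All 8 urothelial markers were above the yardstick on stroma 3 and summed to 168600 there, against 42660 and 14110 on stroma 1 and 2, 2261 to 3277 in detrusor and 189300 to 279300 in urothelium. A list of 10 kidney tubule genes, chosen after the level of Kcnj1 had been seen and with 8 measured, summed to 78780 on stroma 3 and 58130 on urothelium 1, against 1641 to 10180 on the other 7 arrays. The 7 skeletal muscle markers gave 23420 to 59830 in detrusor, highest on detrusor 1, and 1112 to 4736 elsewhere. The ratio of 3′ to 5′ signal of Actb, a sign of RNA quality, ran from 2.27 to 7.49 in detrusor, 5 to 24.7 in stroma and 5.32 to 8.49 in urothelium. That of Gapdh ran from 15.9 to 34.7, 15.3 to 31.8 and 19.1 to 23.4, and the part of RNA quality in the results was not tested. In such mixed captures fewer cells of a type and less RNA per cell cannot be told apart.

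Layers were compared with limma on log2(intensity + 39.34), where a difference of 1 is a change by a factor of 2 and each difference is printed ± its standard error, and genes with a Benjamini-Hochberg adjusted p under 0.05 over all genes were called. A filter on dim probe sets left 13064 genes, with 45 of the 84 potassium channel genes, and a second fit without it held all 84. A gene could pass the filter through the layer where it was high, so counts among the 45 are descriptions. Of the 45, 19 were called in at least 1 layer comparison, 13 of them higher in detrusor and 6 lower in detrusor, and 26 were called in none, where 17.7% of all 13064 genes were called in at least 1. Without the filter 17 of 84 were, against 11.3% of all 18193 genes.

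Urothelium and detrusor differed most. Compared with detrusor, urothelium had lower levels of Kcnq5, Kcnmb1, Kcng1, Kcnk3, Kcnj8, Kcnd3, Kcnip4, Kcnh2, Kcnt1, Kcnip3 and Kcnn2 and higher levels of Kcnk1, Kcnj15, Kcnn4, Kcnk5 and Kcnk2. In all, 16 of the 45 were called, where 16.4% of all 13064 genes were, 5 higher (8.37% of all genes) and 11 lower (8.05%). Without the filter 14 of 84 were called, against 10.5% of all 18193 genes, 4 higher (5.43%) and 10 lower (5.08%). Kcnk2, Kcnk5 and Kcnip4 were then no longer called. Kcnv1, a modifier subunit above the yardstick in no layer, was called higher (2.47 ± 0.66, adjusted p = 0.0356). It gave 17.8, 22.4 and 14.5 units in detrusor and 438, 86.1 and 501 in urothelium. The median difference over the 84 was -0.16, against -0.01 over all genes.

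Detrusor and stroma differed less. Detrusor had higher levels of Kcnf1, Kcng1, Kcnk3, Kcnip4 and Kcnma1 and lower levels of Kcnk1, Kcnc2 and Kcnk2. These were 8 of the 45, where 5.84% of all genes were called, 5 higher (3.12%) and 3 lower (2.72%). Without the filter 6 of 84 were called, against 3.39% of all genes, and Kcnc2 and Kcnip4 were no longer among them. The median over the 84 was -0.41, against -0.24 over all genes. Centring each array on its median moved the median of all genes tested from -0.16 to 0.25 in this comparison. Between urothelium and stroma that median moved from -0.12 to 0.31. Centring gave 7 higher and 2 lower potassium channel genes here (5.63% of all genes called), while quantile normalization gave 6 and 2 (6.17%).

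Between urothelium and stroma limma called 0 of the 45 potassium channel genes, and 30 of all 13064 genes (0.23%). At an unadjusted p under 0.05 there were 12 of 45, where 19.0% of all genes passed. Without the filter it called 0 of 84 (0.055% of all genes), with 17 at an unadjusted p under 0.05 against 16.7%. Leaving out stroma 3, the stroma array with the highest urothelial markers, brought in Kcnn4 (4.53 ± 0.55, adjusted p = 0.00473). The share of all genes called then rose from 0.23% to 4.04%. The arrays of the layers compared did not overlap for 20 of the 84 genes here (20.9% of all genes), for 25 between detrusor and stroma (24.3%) and for 30 between urothelium and detrusor (31.7%). These counts include genes that did not pass the filter, and low signals carry no order.

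**Figure D2:**
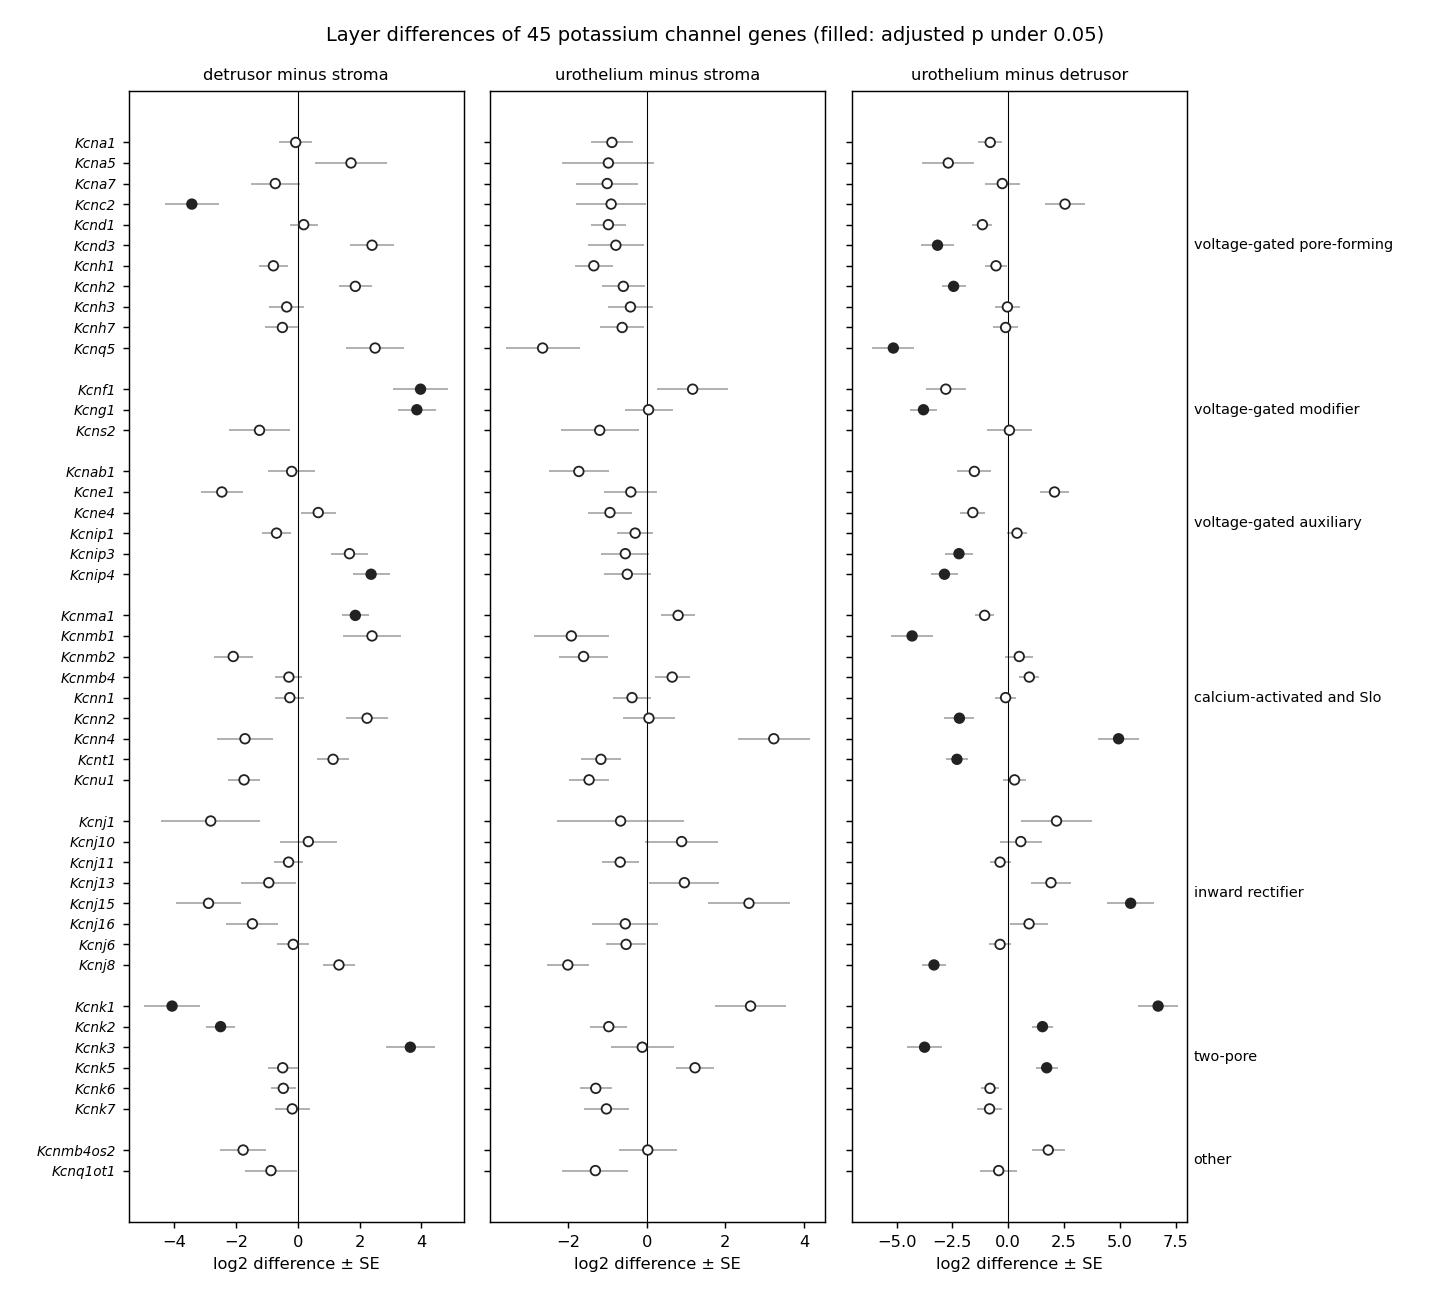
Points give the log2 difference of each of the 45 tested potassium channel genes and bars its standard error, for detrusor minus stroma, urothelium minus stroma and urothelium minus detrusor, each panel with its own scale. Filled points have an adjusted p under 0.05, which are 8, 0 and 16 genes, and the farthest from 0 is Kcnk1 at 6.71 in urothelium minus detrusor.

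Among the voltage-gated pore-forming subunits, those above the yardstick were mostly found in detrusor. Kcnd3, which carries a transient A-type current, gave 16868, 25849.6 and 18425 intensity units on detrusor 1, 2 and 3, 3028, 8721 and 2022 in stroma and 2304, 692 and 6406 in urothelium. Every detrusor array was above every other array. Its level was lower in urothelium than in detrusor (-3.17 ± 0.72, adjusted p = 0.0125), and the 2.40 ± 0.72 by which detrusor exceeded stroma did not pass (adjusted p = 0.0781). The other Kcnd3 probe sets did not pass the filter. The brightest of them overlapped between detrusor (155 to 231 units) and stroma (164 to 272).

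Kcnq5, a subunit of the slowly activating M-type channels, had 2651, 6211 and 4512 units in detrusor, 2151, 125 and 1127 in stroma and 14.6, 47.5 and 326 in urothelium. The 3 stroma arrays spanned much of the range, while no detrusor array overlapped a urothelium array. Urothelium was lower (-5.15 ± 0.94, adjusted p = 0.00444), the largest fall among the potassium channel genes, and a second Kcnq5 probe set, tested on its own, was lower (-3.78 ± 0.79, adjusted p = 0.0108).

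Kcnh2, the ERG channel that helps repolarise heart and smooth muscle, gave 2177, 1947 and 2421 units in detrusor, 323, 1152 and 483 in stroma and 519, 168 and 537 in urothelium. Detrusor lay above both other layers without overlap. The difference from urothelium was called (-2.45 ± 0.54, adjusted p = 0.0108) and that from stroma was not (1.86 ± 0.54, adjusted p = 0.0705). Without detrusor 3 the first moved to -2.37 (adjusted p = 0.0502).

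Kcnc2 ran the other way. This fast delayed rectifier, known from neurons, gave 24.0, 3.11 and 35.6 units in detrusor, 438, 2004 and 221 in stroma and 1126, 130 and 161 in urothelium, and it was above the yardstick on all arrays of no layer. Its detrusor signals all lay below the yardstick, so the size of a difference from them is uncertain. Detrusor was lower than stroma (-3.43 ± 0.88, adjusted p = 0.0464), a call lost under 14 of 21 alternatives (adjusted p up to 0.143), among them quantile normalization, median centring, array weights and postnatal day as a covariate. Stroma 2, where it peaked, also had the highest sum of 5 measured neural and glial markers (3461 units, against 1000 to 2637 on the other stroma arrays, 1311 to 2375 in detrusor and 528 to 889 in urothelium), whose part in the result was not tested. Kcns2, a modifier subunit of neurons, peaked on the same array at 3573 units and lay between 104 and 251 on the other 8.

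The remaining voltage-gated pore-forming genes with a test, Kcna1, Kcna5, Kcna7, Kcnd1, Kcnh1, Kcnh3 and Kcnh7, were called in no comparison. Kcna5, a delayed rectifier of vascular muscle, read 3138, 429 and 655 units in detrusor, 799.6, 3.42 and 761 in stroma and 196, 261 and 15.1 in urothelium, and its spread within a layer was as large as the differences. Kcnd1, an A-type subunit, was above the yardstick in detrusor (679.9 to 829 units) and stroma (397 to 1231), and its urothelium arrays (290.1 to 387) lay below both. With no filter the 22 pore-forming genes had a median of -0.49 in detrusor minus stroma and -0.25 in urothelium minus detrusor.

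The modifier subunits do not form channels alone and change the gating of Kcnb channels. Kcng1 gave 2661, 1960 and 2056 units in detrusor, 313, 27.9 and 120 in stroma and 121, 65.9 and 211 in urothelium. The detrusor arrays agreed within 0.23 log2 units (SD, n = 3) and stood apart from both other layers, in neither of which it was above the yardstick. Kcng1 was higher in detrusor than in stroma by 3.85 ± 0.61 (adjusted p = 0.00836) and lower in urothelium than in detrusor (-3.80 ± 0.61, adjusted p = 0.0026). The call against stroma was lost without detrusor 3 (3.90, adjusted p = 0.0503). A second Kcng1 probe set, which did not pass the filter, read 8.69 to 32.0 units in detrusor.

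Kcnf1 gave 1012, 988 and 1322 units in detrusor and 90.2, 4.33 and 28.2 in stroma, a difference of 3.97 ± 0.90 (adjusted p = 0.0301). That call was lost under 7 of 21 alternatives (adjusted p up to 0.124), among them each detrusor array left out. In urothelium Kcnf1 gave 94.8, 2.52 and 741, with the high value on urothelium 3, which also had the high smooth muscle sum. Urothelium minus detrusor was -2.80 ± 0.90 (adjusted p = 0.0585) with all arrays and -3.92 ± 0.71 (adjusted p = 0.0064) without stroma 3 and urothelium 3. Urothelium minus stroma was 1.17 ± 0.90 with all arrays and -0.01 without those 2.

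Among the auxiliary subunits, the called genes were the Kv channel interacting proteins Kcnip3 and Kcnip4, calcium-binding partners of the Kcnd channels. Kcnip3 gave 936, 864 and 549 units in detrusor, 206, 302 and 152 in stroma and 179, 30.1 and 309 in urothelium, and urothelium was lower than detrusor (-2.21 ± 0.61, adjusted p = 0.0309), a call lost under 6 of 21 alternatives. Kcnip4 gave 268, 249 and 405 units in detrusor and between 4.88 and 81.2 on the other 6 arrays. Detrusor exceeded stroma by 2.37 ± 0.60 (adjusted p = 0.0452) and urothelium was lower (-2.86 ± 0.60, adjusted p = 0.0091). The call against stroma was lost under 14 of 20 alternatives. These Kcnip4 values lie near the yardstick, and the fit without the filter used another of its probe sets and gave 0.91 ± 0.54 (adjusted p = 0.39) and -1.79 ± 0.54 (adjusted p = 0.0611).

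Kcne4, a single-pass subunit that inhibits some voltage-gated channels, was above the yardstick on all 9 arrays, with 3438 to 5357 units in detrusor, 1165 to 5566 in stroma and 992 to 2609 in urothelium, and was called in no comparison. Kcne1, the partner of Kcnq1, read 3.34 to 8.45 units in detrusor and 65.8 to 465 elsewhere, with detrusor minus stroma at -2.46 ± 0.67 (adjusted p = 0.0571). Kcne1 was above the yardstick in no layer, so the size of this difference is uncertain. A second Kcne1 probe set, which did not pass the filter, overlapped between detrusor (52.1 to 107 units) and stroma (26.05 to 521). In the fit without the filter the lowest auxiliary subunit difference there was -0.94. Kcnab1, a beta subunit of Kcna channels, had the smallest p of its group between urothelium and stroma (-1.72 ± 0.76, adjusted p = 0.252), with stroma at 43.5 to 446 units and urothelium at 14.6 to 37.4.

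The calcium-activated group held the best-known channel of bladder muscle. Kcnma1, the pore of the large-conductance channel, gave 1898, 6029 and 2752 units in detrusor, 767, 937 and 829 in stroma and 1179.6, 1633 and 1749 in urothelium. The order was detrusor, urothelium, stroma with no overlap between neighbours, although the lowest detrusor and the highest urothelium array were close. Only detrusor minus stroma passed (1.86 ± 0.43, adjusted p = 0.0311), and urothelium minus detrusor (-1.06 ± 0.43, adjusted p = 0.125) and urothelium minus stroma (0.80 ± 0.43, adjusted p = 0.343) did not.

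The Kcnma1 call was lost under 10 of 22 alternatives. Among these were postnatal day as a covariate (1.83, adjusted p = 0.0503), array weights (1.62, adjusted p = 0.0566) and a fit of only the 2 layers compared (1.86, adjusted p = 0.0521). It was also lost without detrusor 2 (1.40, adjusted p = 0.0954), without detrusor 3 (1.96, adjusted p = 0.103), without stroma 1 (1.80, adjusted p = 0.0659) and without stroma 3 (1.85, adjusted p = 0.071). The mean over 4 passing probe sets gave 1.09 ± 0.50 (adjusted p = 0.229), since the other 3 gave 1.39, 0.84 and 0.29. One of these 3, tested on its own, was lower in urothelium than in detrusor (-2.28 ± 0.61, adjusted p = 0.032), with 382, 406 and 792 units in detrusor and 98.8, 122 and 21.2 in urothelium, while the brightest probe set was not called there.

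Kcnmb1, the smooth muscle beta subunit that raises the calcium sensitivity of the channel, gave 1551, 2451 and 2055 units in detrusor, 991, 144 and 258 in stroma and 5.40, 3.35 and 515 in urothelium. Urothelium 1 and 2 were near the bottom of the scale, and urothelium 3, with its smooth muscle transcripts, overlapped stroma. Urothelium was lower than detrusor (-4.31 ± 0.95, adjusted p = 0.0109), and the difference was -5.53 ± 0.71 without stroma 3 and urothelium 3 (adjusted p = 0.00134). A second Kcnmb1 probe set, tested on its own, was not called (-1.99 ± 0.98, adjusted p = 0.234), with 798, 846 and 762 units in detrusor and 250.4, 13.4 and 582 in urothelium. Detrusor minus stroma was 2.40 ± 0.95 (adjusted p = 0.165) and urothelium minus stroma -1.91 ± 0.95 (adjusted p = 0.307).

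The other beta subunits did not follow Kcnmb1. Kcnmb4, known from brain, was above the yardstick on all 9 arrays, with 921 to 1255 units in detrusor, 781 to 2518 in stroma and 1706 to 2972 in urothelium, and was called in no comparison (urothelium minus detrusor 0.94 ± 0.44, adjusted p = 0.186). Kcnmb2, which gives inactivation, was above the yardstick in stroma alone (532 to 1778 units, against 87.1 to 241 in detrusor and 119.7 to 498 in urothelium), with detrusor minus stroma at -2.09 ± 0.63 (adjusted p = 0.078). A second passing Kcnmb2 probe set was above the yardstick in no layer. Tested on its own, it gave -0.3 ± 0.67 there (adjusted p = 0.84).

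Kcnn4, the intermediate-conductance channel of epithelia and blood cells, gave 39.2, 19.9 and 27.0 units in detrusor and 1284, 2186 and 2959 in urothelium. Stroma gave 76.5, 30.1 and 1297, with the high value on stroma 3, the stroma array with the highest urothelial marker sum. Urothelium exceeded detrusor by 4.94 ± 0.92 (adjusted p = 0.00495), and a second probe set gave 2.90 ± 0.58 (adjusted p = 0.00869). Urothelium minus stroma was 3.23 ± 0.92 (adjusted p = 0.0964).

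Kcnn2, a small-conductance channel, moved the other way, with 232, 571 and 555 units in detrusor, 24.3, 197 and 22.0 in stroma and 43.8, 41.8 and 115 in urothelium. Urothelium was lower than detrusor (-2.19 ± 0.67, adjusted p = 0.049). That call was lost under 13 of 21 alternatives, among them quantile normalization, median centring and the mean of probe sets. It was also lost when any 1 detrusor or urothelium array was left out (adjusted p between 0.0595 and 0.171). Kcnt1, a sodium-activated channel, gave 576, 1027 and 449.9 units in detrusor, 296, 208 and 323 in stroma and 179, 54.5 and 92.4 in urothelium, and urothelium was lower than detrusor (-2.30 ± 0.51, adjusted p = 0.0109). The other 2 passing Kcnt1 probe sets were not called (-1.21, adjusted p = 0.29, and -0.99, adjusted p = 0.446), nor was the mean of the 3 (-1.50, adjusted p = 0.0908). Both genes were above the yardstick in detrusor alone.

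**Figure D3:**
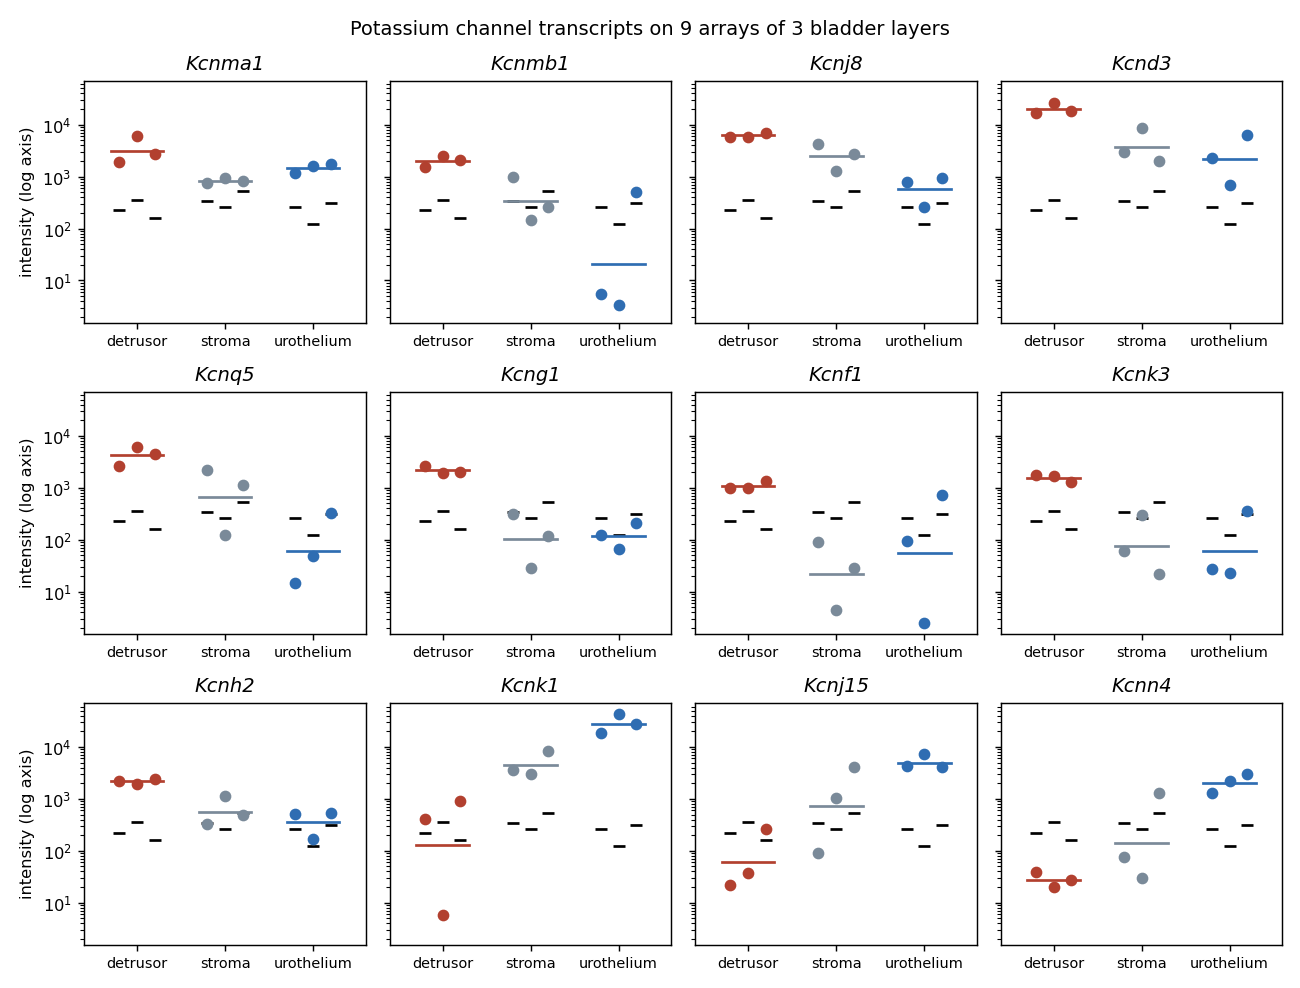
Dots give the intensity of 12 potassium channel genes on each of the 9 arrays (log axis), coloured lines the geometric mean of a layer and black ticks the background yardstick of each array. Kcnd3, Kcnq5, Kcng1, Kcnf1, Kcnk3 and Kcnh2 are highest in detrusor and Kcnk1, Kcnj15 and Kcnn4 highest in urothelium, and Kcnma1 is above the ticks on all 9 arrays.

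Among the inward rectifiers, Kcnj8 and Kcnj15 moved in opposite directions. Kcnj8, the pore of the ATP-sensitive channel in smooth muscle, gave 5916, 5888 and 7007 units in detrusor, 4311, 1263 and 2733 in stroma and 800.5, 259.6 and 936 in urothelium. The layers fell in the order detrusor, stroma, urothelium with no overlap between neighbours. Urothelium was lower than detrusor (-3.33 ± 0.53, adjusted p = 0.00252), while urothelium minus stroma (-2.00 ± 0.53, adjusted p = 0.0823) and detrusor minus stroma (1.33 ± 0.53, adjusted p = 0.167) did not pass.

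Abcc9, the sulfonylurea receptor that assembles with Kcnj8 and its neighbour on chromosome 6, gave 7279, 2169 and 3860.1 units in detrusor, 3254, 2743 and 2682 in stroma and 1764, 388 and 854 in urothelium. It was also lower in urothelium than in detrusor (-2.17 ± 0.55, adjusted p = 0.0212). Kcnj8 and Abcc9 are both known from vascular mural cells too. The 5 pericyte markers summed to 23870 to 33650 units in detrusor, 18110 to 56340 in stroma and 59940 to 68520 in urothelium, most of it there from Rgs5. Their median log2 level was 12.03 to 12.68 in detrusor, 11.87 to 12.36 in stroma and 8.72 to 11.80 in urothelium, so the sum was highest and the median lowest in urothelium. The part of these cells in the Kcnj8 result was not tested. Kcnj11, the other pore of ATP-sensitive channels, was above the yardstick on all 9 arrays (391 to 1388 units) and was called in no comparison.

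Kcnj15, an inward rectifier known from epithelia, gave 22.1, 36.8 and 263 units in detrusor, 90.3, 1019.9 and 4153 in stroma and 4212, 7177 and 4101 in urothelium. The stroma arrays spread over almost the whole range, with the highest on stroma 3. Urothelium exceeded detrusor by 5.48 ± 1.05 (adjusted p = 0.00556), and detrusor minus stroma was -2.89 ± 1.05 (adjusted p = 0.134). Its other probe sets did not pass the filter. The brighter of them overlapped between detrusor (56.5 to 272 units) and urothelium (119 to 319.5).

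Kcnj1, Kcnj10 and Kcnj16 are known from kidney tubules. Kcnj1 gave 2321 units on stroma 3, 3741 on urothelium 1, 398 on stroma 2 and 10.2 to 33.0 on the other 6 arrays. Kcnj10 gave 734 and 610.0 on the first pair of arrays and 25.8 to 224 elsewhere. The Kcnj16 probe set used for the gene gave 1678 on urothelium 1, 406, 517.9 and 520.3 in stroma and 71.1 to 240.0 on the other 5. A second Kcnj16 probe set gave 2129 and 4379.5 there, 347 on urothelium 3 and 3.58 to 14.9 on the other 6. None of the 3 genes was called in any comparison. Kcnj15 and Kcnk1 were highest on urothelium 2, where the kidney list had its lowest sum. Without stroma 3 and urothelium 1 they exceeded detrusor by 5.61 ± 0.98 (adjusted p = 0.0105) and 7.01 ± 1.07 (adjusted p = 0.00631). The part of kidney tubule RNA in these levels was not tested.

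**Figure D4:**
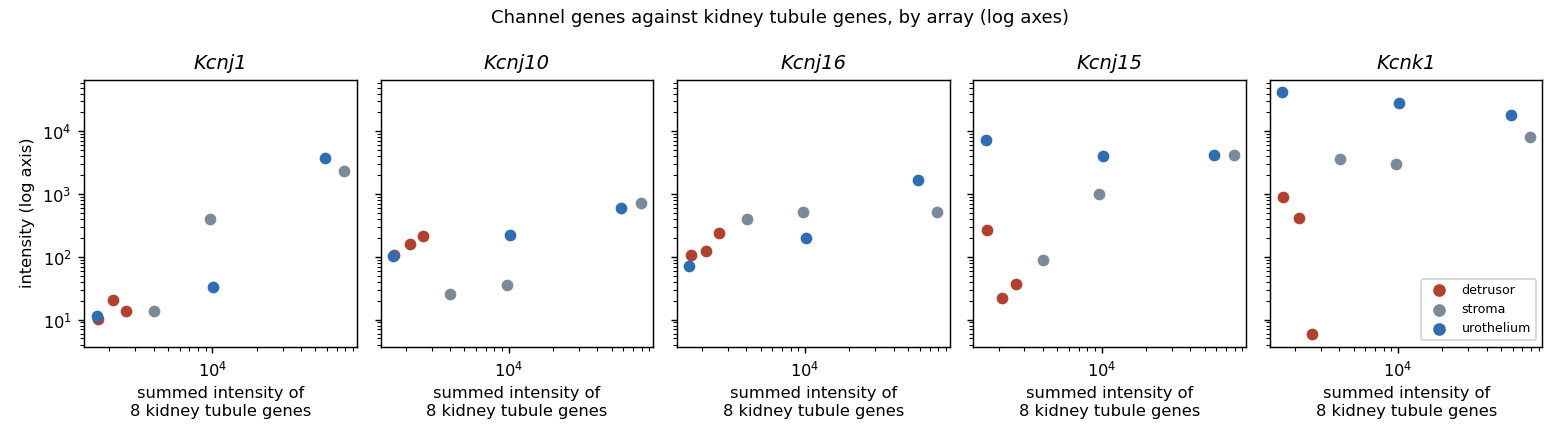
Each panel plots the intensity of a channel gene against the summed intensity of 8 kidney tubule genes on each of the 9 arrays, both on log axes, coloured by layer. Kcnj1 is high on the 2 arrays with sums of 58130 and 78780, and Kcnj15 and Kcnk1 are highest on urothelium 2, at the low end with 1641, and the part of kidney RNA in these levels was not tested.

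The remaining inward rectifiers with a test were Kcnj6 and Kcnj13. Kcnj13, known from the kidney, gut and retinal epithelium, reached 829 units on stroma 1, 666 on urothelium 2 and 1086 on urothelium 3 and lay between 46.4 and 159 on the other 6 arrays. Kcnj6, a channel gated by G proteins, lay between 125 and 457 units throughout. Kcnj2, Kcnj3, Kcnj4, Kcnj5, Kcnj9, Kcnj12 and Kcnj14 did not pass the filter. With no filter the 15 inward rectifiers had a median of -0.29 in detrusor minus stroma and -0.07 in urothelium minus detrusor.

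The two-pore channels, which carry leak currents that set the resting potential, held the largest difference among the potassium channel genes when the brightest probe set stood for each gene. With the mean of passing probe sets Kcnk1 gave 4.97. Kcnj15 stayed at 5.48 there because a single one of its probe sets passed the filter, so these values are unlike measures. Kcnk1, a weakly inwardly rectifying leak channel, gave 417, 5.79 and 912 units in detrusor, 3614, 3024 and 8230.2 in stroma and 18546, 42632 and 28309.8 in urothelium. The layers did not overlap. Urothelium exceeded detrusor by 6.71 ± 0.91 (adjusted p = 0.0014), and detrusor was lower than stroma (-4.07 ± 0.91, adjusted p = 0.029). Urothelium minus stroma was 2.64 ± 0.91 (adjusted p = 0.149). A second Kcnk1 probe set was higher in urothelium than in detrusor by 3.24 ± 0.60 (adjusted p = 0.00606). It was not called between detrusor and stroma (-2.07 ± 0.60, adjusted p = 0.0839). There the call of the brightest probe set was lost under 6 of 21 alternatives, among them detrusor 1, stroma 1 or stroma 3 left out.

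Kcnk2, a channel opened by stretch, was highest in stroma, with 1642, 2398 and 1696 units there, 347, 436 and 176 in detrusor and 1428, 1113 and 526 in urothelium. Detrusor was lower than stroma (-2.50 ± 0.47, adjusted p = 0.0163), and urothelium was higher than detrusor by 1.53 ± 0.47 (adjusted p = 0.0472). Urothelium minus stroma was -0.96 ± 0.47 (adjusted p = 0.297). The call between urothelium and detrusor was lost under 14 of 21 alternatives, among them each detrusor array left out (1.62, 1.77 and 1.20).

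Kcnk3, a leak channel closed by acid, was highest in detrusor, with 1742, 1659.97 and 1305 units there, 61.4, 296 and 22.3 in stroma and 27.9, 23.0 and 356 in urothelium. These are values of its brightest probe set. Its other probe sets did not pass the filter and read 7.67 to 66.8 and 25.6 to 40.8 units in detrusor. By the brightest probe set, the following differences were found. It was higher in detrusor than in stroma by 3.64 ± 0.80 (adjusted p = 0.0274) and lower in urothelium than in detrusor (-3.75 ± 0.80, adjusted p = 0.00957). The call against stroma was lost under 6 of 21 alternatives (adjusted p up to 0.1002), among them each detrusor array left out. Kcnk5, a leak channel of epithelia opened by alkali, gave 569, 812 and 755 units in urothelium, 178, 347 and 342 in stroma and 283, 236 and 91.8 in detrusor, and urothelium exceeded detrusor by 1.72 ± 0.49 (adjusted p = 0.0356). That call was lost under 8 of 21 alternatives, among them no filter and each urothelium array left out. Kcnk6 was above the yardstick on all 9 arrays, with 1503 to 2475 units in detrusor, 2448 to 3090.0 in stroma and 825 to 1977 in urothelium, and had the smallest p of its group between urothelium and stroma (-1.29 ± 0.40, adjusted p = 0.116).

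**Figure D5:**
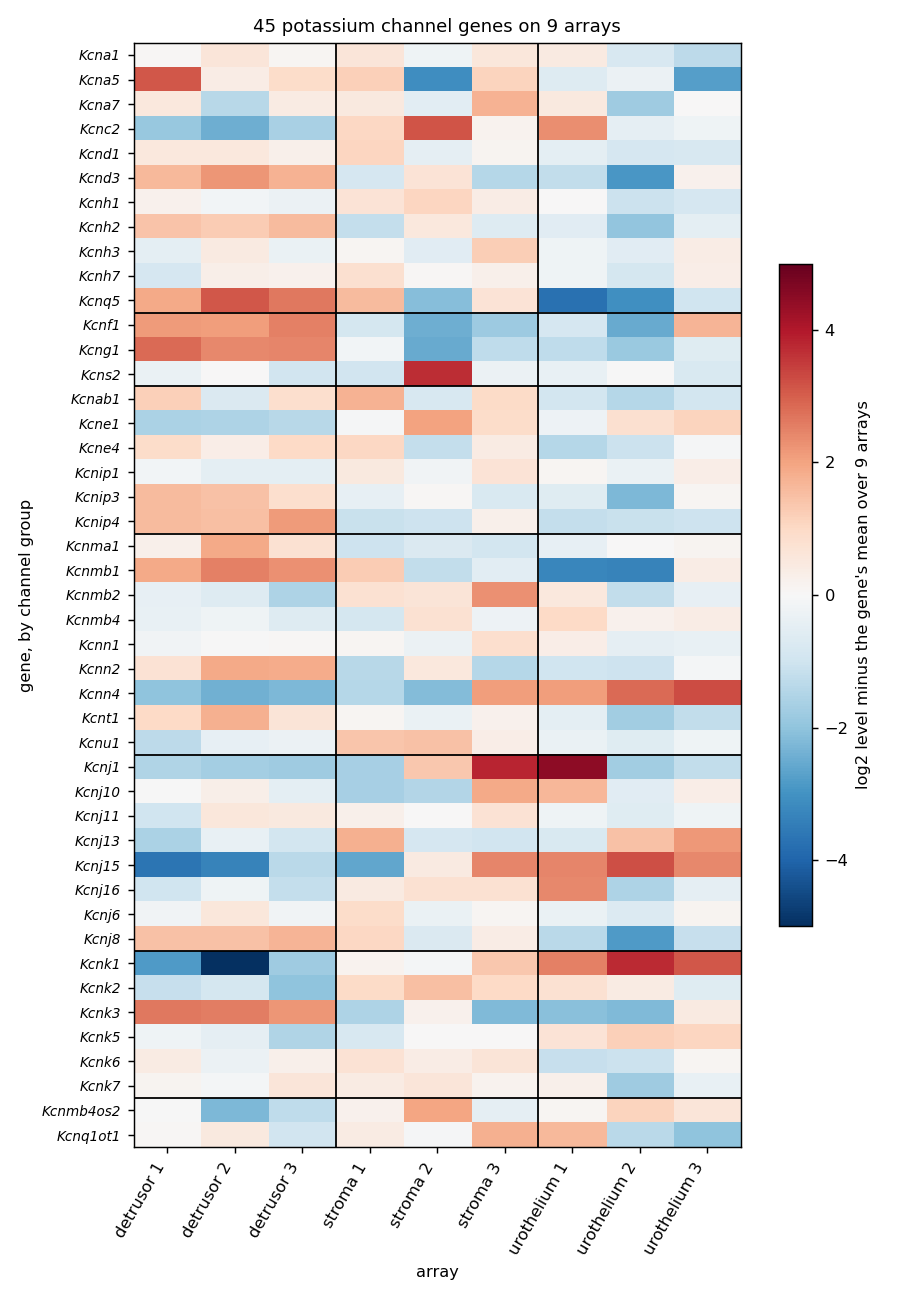
Colour gives the log2 level of each of the 45 tested potassium channel genes on each of the 9 arrays minus that gene's mean over the 9, with red above and blue below the mean and lines between layers and channel groups. Kcng1, Kcnf1 and Kcnk3 are red on the 3 detrusor arrays, Kcnk1 and Kcnj15 on the 3 urothelium arrays and Kcnj1 on stroma 3 and urothelium 1.

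The array with smooth muscle transcripts stood out among the potassium channel genes as well. Of the 11 that were lower in urothelium than in detrusor, 10 had their highest urothelium value on urothelium 3, the exception being Kcnt1, and this held for 64.9% of all 1051 genes lower there. Of the 5 that were higher in urothelium, Kcnj15, Kcnk1 and Kcnn4 had their highest stroma value on stroma 3, as did 55.3% of all 1094 such genes. Of the 3 that were lower in detrusor than in stroma, 1 (Kcnk1) peaked on stroma 3, as did 45.9% of all 355 such genes. Without stroma 3 and urothelium 3, 15 were called between urothelium and detrusor (14.4% of all genes), 14 of them among the 16. Between detrusor and stroma 5 were called (3.28%), all among the 8.

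Between detrusor and stroma the count fell when any 1 detrusor array, stroma 1 or stroma 3 was left out, and so did the share of all genes called. Leaving out detrusor 1 or detrusor 2 gave 3 (2.82% and 1.45% of all genes), and leaving out detrusor 3 gave 1 (0.804%). The count was 5 without stroma 1 (4.88%) and 4 without stroma 3 (3.08%). With detrusor 3 left out, Kcnk1 was the remaining potassium channel gene (-4.98 ± 0.86, adjusted p = 0.0398). Between urothelium and detrusor the count was 10 without detrusor 3 (8.97% of all genes) and 11 to 20 without any other array (10.2% to 18.6%). Kcnk1, Kcnn4, Kcnj15, Kcnj8, Kcng1, Kcnq5 and Kcnk3 were called there under each of the 21 or 22 alternatives that could be fitted for them. For Kcnj15, Kcnj8, Kcng1 and Kcnk3 a single probe set passed the filter, so no alternative used another.

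Day 2 was compared with day 1 within layers. This called 0 of the 45 potassium channel genes with limma and 2 of all 13064 genes (0.0153%), and at an unadjusted p under 0.05 there were 2 of 45 against 5.56% of all genes. Without the filter limma called 0 of 84 (0.011% of all genes), with 5 at an unadjusted p under 0.05 against 5.01%. Days 1 and 2 lie close together, and 4 arrays stood against 5.

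Genes that work beside the potassium channels were taken as lists, chosen with earlier results of these data known. Such a gene could pass the filter through the layer where it was high, so the counts and medians below are descriptions. Of 12 genes for calcium entry and release, which feed the calcium-activated channels, 9 were tested, and 6 were lower in urothelium than in detrusor and 0 higher, where 8.05% and 8.37% of all genes were. Examples are Cacna1d (-2.46 ± 0.46, adjusted p = 0.0049) and Cacna1h (-3.13 ± 0.61, adjusted p = 0.00629), pores of voltage-gated calcium channels, and Jph2 (-3.55 ± 0.69, adjusted p = 0.006), which holds the sarcoplasmic reticulum near the membrane. Detrusor exceeded stroma in 2 of the 9, Jph2 (2.82 ± 0.69, adjusted p = 0.0393) and Cacna2d1 (2.72 ± 0.60, adjusted p = 0.0271), an auxiliary calcium channel subunit, and was lower in 0, where 3.12% and 2.72% of all genes were. The list had a median of -2.46 between urothelium and detrusor and of 2.04 between detrusor and stroma, against -0.01 and -0.16 over all genes tested.

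The channel partners had 3 of 9 genes tested, and Abcc9 was the 1 called. None of the 3 tested sodium-potassium pump subunits was called in any layer comparison, and the 2 measured pacemaker channel genes did not pass the filter. Of 5 tested cation-chloride cotransporters, Slc12a7, which carries potassium and chloride out of cells, was higher in urothelium than in detrusor (1.55 ± 0.46, adjusted p = 0.0446), with 5289.9, 3855 and 4898 units against 2393, 1008 and 1578.

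Genes of this family also lie beside each other in the genome. By the order of coding genes on GRCm38.p6, neighbours were Kcnip1 and Kcnmb1 on chromosome 11, Kcnj6 and Kcnj15 on chromosome 16, Kcnj16 and Kcnj2 on chromosome 11, and Kcna5, Kcna1 and Kcna6 on chromosome 6. Kcnmb1 was lower in urothelium than in detrusor while Kcnip1 was not called (0.39 ± 0.46, adjusted p = 0.629), and Kcnj15 was higher while Kcnj6 was not called (-0.37 ± 0.51, adjusted p = 0.698). The difference within each pair was not tested.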

How the data were processed

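Each of the 9 captured samples, 3 per layer, was hybridised to 1 Affymetrix MOE430 array after amplification, per the labels' protocols. The authors deposited 1 intensity per probe set and array on a linear scale, made with GCOS, per the submitters' processing notes, which name no version here. On every array the mean, with 2% of values trimmed from each end, was 1500.0, so the deposited intensities had been scaled, and this was kept. Precision rests on the small number of arrays.

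The array held 45101 probe sets, of which 34945 were assigned a single symbol, 932 several and 9160 none, beside 64 controls. The log2 scale had a pseudocount of 39.34 added first (the 20th percentile), which makes differences of dim genes too small. A probe set was kept if it reached the median of its array on 3 or more of the 9, and the brightest stood for its gene. One limma fit (version 3.58.1, R 4.3.3, lmFit and eBayes with trend) held all 9 arrays, with Benjamini-Hochberg adjustment over all genes. The fit was tested on simulated data with independent noise. There 50 of 13064 genes were changed at each of the log2 sizes 1, 2, 3 and 4. It called 2% to 6% of changes of 1 and 46% to 52% of changes of 2. More genes were called between urothelium and detrusor than were changed in the simulation, so these shares need not hold for that comparison. A gene that was not called may still differ.

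Values are given for Kcnma1, Kcnmb1 and Kcnj8, for every potassium channel gene called in the fit with the filter, and for the member of each channel group with the smallest p in each comparison. Other genes with values are examples chosen after their values were seen. The members, lists and alternatives were chosen with earlier results of these data known. Start-site sequences and neighbours come from RefSeq (GRCm38.p6), and protein sequences were not used here. Alternatives were quantile normalization, median centring, 2 pseudocounts, 2 filters, 2 ways of using probe sets, array weights, postnatal day, fewer layers and arrays left out.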

Additional observations from a re-analysis of the deposited data

How the results depend on the processing

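Values below are counts of potassium channel genes called at an adjusted p under 0.05, with the share of all genes called in brackets. Between detrusor and stroma the count was 8 (5.84%). It was 2 when the array median had to be reached on all 9 arrays (6.8%), which left 10 of the genes to test. It was 5 without stroma 3 and urothelium 3 (3.28%) and 2 without stroma 3 and urothelium 1 (1.44%). The last alternative was chosen after seeing the data because stroma 3 and urothelium 1 had the highest kidney tubule transcripts. Leaving out single arrays gave 1 to 9 (0.804% to 6.51%). Between urothelium and stroma the count of 0 (0.23%) became 1 with median centring (Kcnn4, 1.71%) and with the median as pseudocount (Kcnk1, 2.32%). It was also 1 without stroma 3 and urothelium 3 (Kcnn4, 3.37%) and without stroma 3 and urothelium 1 (Kcnn4, 1.11%). With single arrays left out the count was 0 to 1 (0% to 4.04%). Between urothelium and detrusor the count of 16 became 3 with the stricter filter (16.1%). Array weights gave 25 and kept all 16, while the share of all genes called rose from 16.4% to 29.0%. The count ran from 10 to 20 with single arrays left out (8.97% to 18.6%). The day test called 0 throughout. The cause of these shifts was not tested, except that the stricter filter tests fewer genes. Among the named genes, 650 of 763 values kept their direction and side of the threshold, and 2 changed sign, neither called: Kcnf1 in urothelium minus stroma (-0.01 without stroma 3 and urothelium 3) and Kcnma1 in urothelium minus stroma (-0.05 with the mean of probe sets). Of 13 genes with several passing probe sets, 4, 6 and 3 had one of opposite sign in detrusor minus stroma, urothelium minus stroma and urothelium minus detrusor, and in 0 of them was the opposite probe set called. Kcnmb1 between urothelium and detrusor was lost under 1 of 21 alternatives (without stroma 3 and urothelium 1, -3.72, adjusted p = 0.0575). No paired analysis was possible because the labels give no replicate numbers that tie samples of different layers together. Groups of 3 arrays are too small to test for a single outlying array, and the table gives no background values, so low signals carry no order.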
